A study of Mus musculus with 26 samples.

Results

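A set of 10 genes of the antiviral interferon response were followed through ChIP-seq libraries of RNA polymerase II (Pol II), of Nur77 carrying an HA tag (HA) and of histone H3 acetylated at lysine 27 (H3K27ac). They were Ifih1, Oasl1, Oasl2, Ifit1, Ifit2, Ifit3, Isg15, Isg20, Rsad2 and Ifnb1, of 49997 gene symbols with a span on the mm10 genome. A region is a set of overlapping peaks of one target, pooled over its libraries. It was given to a gene if it touched the gene's RefSeq span plus 1 kb, or, for intergenic HA and H3K27ac regions, if the gene was the nearest and lay within 50 kb. This gave 11 of 42505 HA regions, 28 of 46133 Pol II regions and 22 of 77715 H3K27ac regions.

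The cells were RAW264.7, a mouse macrophage line, in 2 stable derivatives that express either HA-tagged Nur77 or GFP under doxycycline. Every library of both lines came from cells given 50 ng/ml doxycycline for 18 h, so the GFP line is the control for the inducer and for an induced foreign protein. Cells were left untreated or given 500 ng/ml of lipopolysaccharide (LPS), a component of the Gram-negative cell wall, for 1 h. HA was measured in the Nur77 line only (n = 3 untreated and n = 3 after LPS), with no HA library of the GFP line. Pol II and H3K27ac were measured in both lines and both conditions (n = 2 in each of the 4 groups), and 4 input libraries had 1 per line and condition. The labels do not say whether a line is 1 clone, so a difference between lines and a difference due to Nur77 cannot be told apart. They also do not say that replicates were separate cultures, and p-values then measure only the spread between these libraries. Nur77 (gene Nr4a1) is an orphan nuclear receptor that is induced early in activated macrophages.

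Type I interferons are antiviral cytokines, and interferon beta, made from Ifnb1, is the form that macrophages release soon after LPS is sensed through TLR4 and the adaptor TRIF. It acts back on the cells through the receptor IFNAR, whose signalling leads to binding of the interferon-stimulated response element in the promoters of interferon-stimulated genes. Many of these promoters can also be read directly by IRF3, the factor that TRIF signalling activates, before any interferon has been made.

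The promoters are shown first, for 4 genes that held more Pol II after LPS and for Ifit2, whose start held less. Each line gives the 150 bases just before the annotated start, 5′ to 3′ on the gene's strand, from RefSeq promoters of GRCm38.p6 (mm10). Capitals mark the core of the response element, GAAANNGAA read on either strand, with overlapping matches run together. Isg15 lies on the minus strand at chr4:156200819-156200968, Ifit1 on the plus strand at chr19:34640739-34640888, Rsad2 on the minus strand at chr12:26456453-26456602, Ifih1 on the minus strand at chr2:62646256-62646405 and Ifit2 on the plus strand at chr19:34550544-34550693.
Isg15: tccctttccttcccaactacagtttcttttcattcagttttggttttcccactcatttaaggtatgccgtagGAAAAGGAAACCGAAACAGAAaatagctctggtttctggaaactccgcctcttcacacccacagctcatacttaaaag
Ifit1: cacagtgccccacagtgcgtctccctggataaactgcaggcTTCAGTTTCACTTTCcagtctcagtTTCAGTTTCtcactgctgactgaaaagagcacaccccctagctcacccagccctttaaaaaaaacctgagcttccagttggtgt
Rsad2: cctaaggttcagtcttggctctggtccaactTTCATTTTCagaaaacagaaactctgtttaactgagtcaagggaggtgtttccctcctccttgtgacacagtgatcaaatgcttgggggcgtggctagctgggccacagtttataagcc
Ifih1: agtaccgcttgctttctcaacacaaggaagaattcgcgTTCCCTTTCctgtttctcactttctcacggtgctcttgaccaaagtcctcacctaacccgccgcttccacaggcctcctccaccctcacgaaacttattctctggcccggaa
Ifit2: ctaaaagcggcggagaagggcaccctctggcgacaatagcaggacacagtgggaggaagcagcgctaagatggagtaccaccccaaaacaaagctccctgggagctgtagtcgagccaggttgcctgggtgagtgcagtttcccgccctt

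Over the whole window, 250 bases before to 50 after the start, the core was found in 5 of 10 members (Ifih1, Ifit1, Ifit3, Isg15 and Rsad2) and in 8.56% of all 32851 promoters. Isg15, Ifit1 and Ifit3 each held 3 copies. The copies in Isg15 began 78, 72 and 66 bases before the start, so that they overlapped, and those in Ifit1 began 109, 103 and 84 bases before it. No copy was found in the window of Oasl1, Oasl2, Ifnb1, the 2 starts of Ifit2 or the 3 starts of Isg20. Of these, Oasl1 also held more Pol II after LPS in both lines, and Isg20 in the Nur77 line. Ifit3, with its 3 copies, had no Pol II region. The AP-1 element TGANTCA was in Ifit3 and Rsad2, and in 7.81% of all promoters. The monomer element of the Nur77 family, AAAGGTCA, was in none of the 13 member promoters and in 1.51% of all, and GGGNNTTCC, a shortened form of the NF-kB element, was in none and in 5.82%. The 4 motifs were searched on both strands, and a match describes letters only. The shortened letters can miss full-length NF-kB elements. Absent letters do not show that a promoter, such as that of Ifnb1, lacks sites for NF-kB or for the factors that bind the response element.

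H3K27ac libraries held 22.3 to 28.4 M mapped tags, Pol II libraries 11.9 to 23.1 M, HA libraries 6.41 to 18.2 M and input libraries 14.02 to 23.4 M. No peak or region called in input lay over a member region. All 8 macrophage markers checked (Ptprc, Cd68, Csf1r, Adgre1, Itgam, Spi1, Cd14 and Fcgr1) had a Pol II region in every library, as had 2 of 9 markers of other cell types, Gfap and Cdh5. Both HA replicates 3 had narrower peaks (343 and 427 bp, against 827 to 1017 bp), and among Pol II lists replicate 1 of the untreated Nur77 line states a fragment length of 1550, against 174 to 318 elsewhere. Among member regions in the Nur77 line, leaving that library out ended the Pol II call of Isg20 after LPS and no other. Pol II calls of the GFP line and of the pathway list were not rechecked one by one without it. Without scaling the median change of all regions after LPS was -0.15 and -0.40 for Pol II in the GFP and Nur77 line, -0.32 and -0.33 for H3K27ac and 0.07 for HA. Log2 changes below are from scaled libraries and so are relative to that shift.

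After 1 h of LPS, Pol II was higher over Ifih1, Isg15 and Oasl1 in both lines and over Isg20 in the Nur77 line, and lower at the start of Ifit2 in both lines. Values are normalized tags as deposited, that is tags per 10000000 mapped tags, added up over all peaks in the region. Tags of the region outside a library's called peaks are not counted. A change in these values thus joins the signal within peaks with the length called as peak, and tests per bp are given beside it. Regions with a peak in every library of a target were tested with limma on log2(normalized tags + 1) after scaling the libraries, with Benjamini-Hochberg adjustment over all tested regions and a threshold of 0.05. Of the 28 Pol II member regions 5 met that condition, of the 22 H3K27ac regions 8, and of the 11 HA regions 3. The others are given by their libraries. Among the tested Pol II regions, only Isg15 in both lines and Ifih1 in the Nur77 line passed per bp. The LPS response of Isg20 was not called different between the lines. In bulk libraries, more cells with Pol II on a gene and more Pol II per cell cannot be told apart.

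In the GFP line, 3 of the 5 tested Pol II regions rose and 1 fell, against 9.78% of all 17081 regions that rose and 8.79% that fell. In the Nur77 line, 4 rose and 1 fell, against 14.4% and 15.7% of all. For H3K27ac, 4 of the 8 regions rose and 1 fell in the GFP line, against 27.3% and 25.8% of all 27094 regions. In the Nur77 line 7 rose and 1 fell, against 28.1% and 27.5%. The median log2 change of the member regions was 2.09 and 2.87 for Pol II in the GFP and the Nur77 line, and 0.75 and 1.16 for H3K27ac, where the medians of all regions lay between -0.02 and 0.01. For HA, 1 of 3 regions rose and 0 fell, against 3.27% and 1.35% of all 11234 regions.

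**Figure D1:**
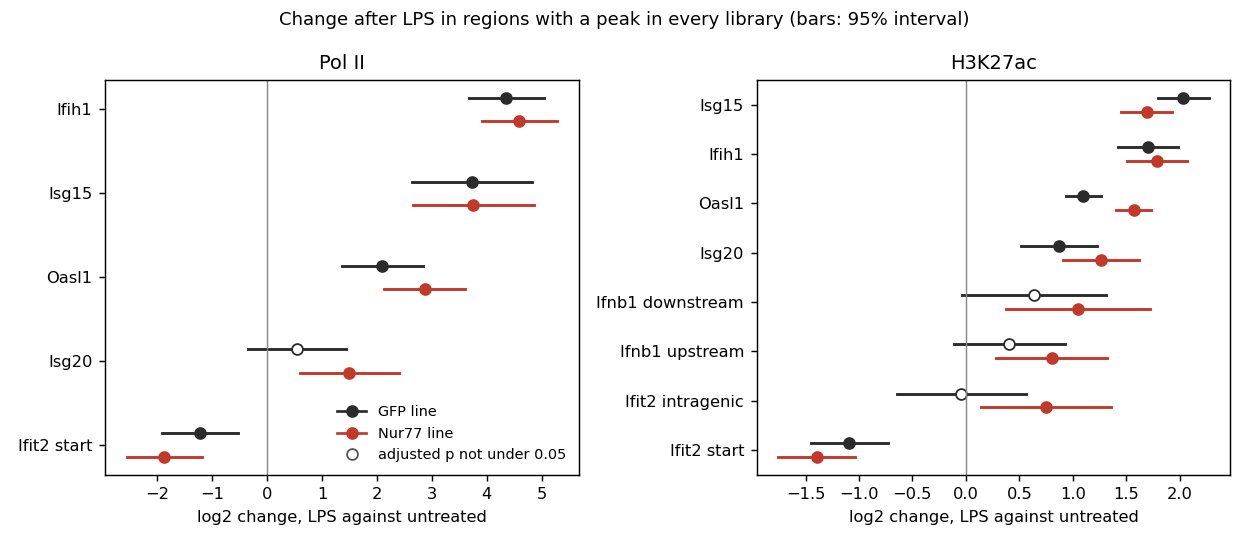
log2 change after LPS of the member regions with a peak in every library, for Pol II (left) and H3K27ac (right), in the GFP line (black) and the Nur77 line (red). Points are limma estimates, bars their 95% intervals, and open points have an adjusted p above 0.05. Ifih1, Isg15 and Oasl1 lie to the right of 0 in both lines and for both targets, and the start of Ifit2 lies to the left.

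Ifih1 (chr2:62595618-62646255, minus strand) encodes MDA5, a cytosolic sensor of long double-stranded RNA. Its main Pol II region, chr2:62627652-62649496, runs from upstream of the start into the gene. It held 79.5 and 101 normalized tags in the untreated GFP libraries and 2234 and 1260 after LPS. In the Nur77 line it held 93.3 and 81.8 tags untreated and 1945 and 1378 after LPS. Every LPS library lay far above every untreated library, and the lines overlapped. The log2 change was 4.36 ± 0.30 (SE) in the GFP line and 4.59 ± 0.30 in the Nur77 line, with adjusted p of 0.00022 and 0.00013 (limma).

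The called peaks were also longer. They covered a mean of 1.94 kb and 2.23 kb of the region in untreated GFP and Nur77 libraries, and 20.6 kb and 20.2 kb after LPS. Tags per kb went from 47.5 to 84.5 in the GFP line and from 39.9 to 83.04 in the Nur77 line. Tested per bp, the log2 change was 0.94 in the GFP line, with an adjusted p of 0.075, and 1.17 in the Nur77 line, with an adjusted p of 0.021 (limma). The 15 other Pol II regions of Ifih1 lay further along, beginning 19.0 to 51.3 kb after the start, the last of them just past the end of the gene. None had a peak in an untreated library, all had one in GFP LPS replicate 1, 2 also had one in GFP LPS replicate 2 and 1 in Nur77 LPS replicate 2, with 6.49 to 49.7 tags a region.

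H3K27ac at the Ifih1 start (chr2:62644286-62647229) held 63.0 and 57.1 tags in untreated GFP libraries and 173.6 and 143 after LPS. The Nur77 line held 51.8 and 49.4 untreated and 132.8 and 146.5 after LPS. The groups with and without LPS did not overlap. The log2 changes were 1.70 ± 0.13 and 1.79 ± 0.13 (adjusted p 6.3e-07 and 4.2e-07, limma). HA peaks over Ifih1 were single: 19.5 tags across the start in LPS replicate 3, and 9.59 tags some 10.6 kb into the gene in untreated replicate 3.

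**Figure D2:**
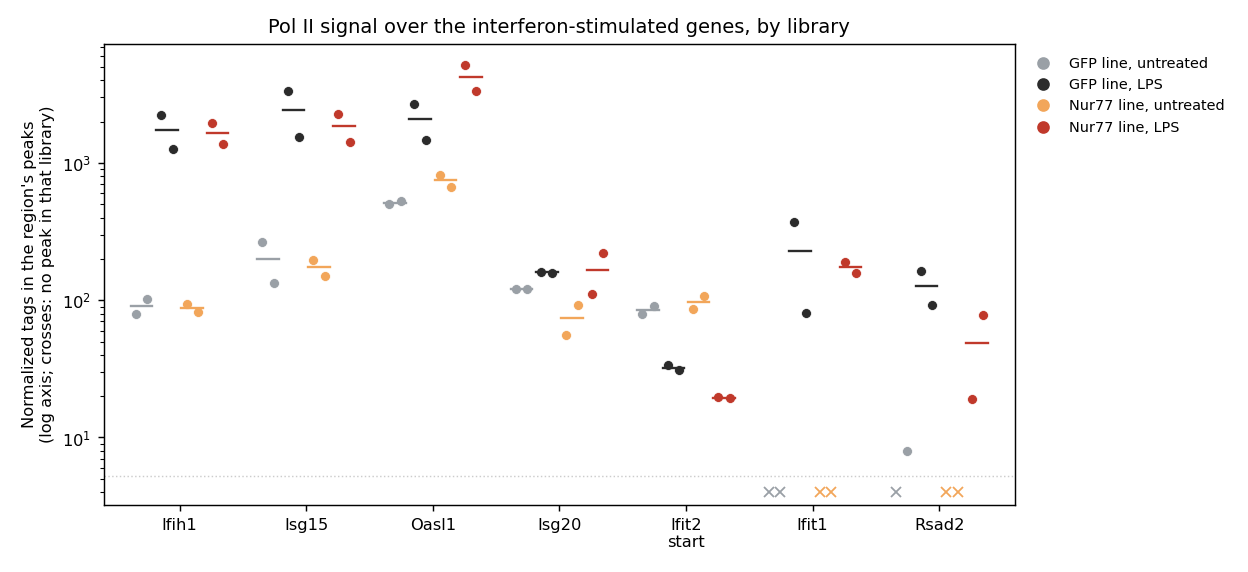
Normalized Pol II tags of 7 member regions in each of the 8 libraries, on a log axis. Points are libraries, short lines group means, and crosses mark libraries with no called peak. Ifih1, Isg15 and Oasl1 are separated by LPS, the Ifit2 start moves the other way, and Ifit1 has a peak after LPS only.

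Oasl1 (chr5:114923143-114937911, plus strand) and Oasl2 (chr5:114896926-114912245, plus strand) encode proteins related to oligoadenylate synthetases, the enzymes that make the messenger activating RNase L. Oasl1 is known to restrain translation of Irf7. The Pol II region over Oasl1 held 500 and 530 tags in untreated GFP libraries and 2692 and 1462 after LPS. In the Nur77 line it held 823 and 672 untreated and 5145 and 3368 after LPS. Both Nur77 LPS libraries exceeded both GFP LPS libraries.

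The rise of Oasl1 with LPS was 2.09 ± 0.32 in the GFP line (adjusted p 0.0043) and 2.87 ± 0.32 in the Nur77 line (adjusted p 0.0008, limma). After LPS the Nur77 line was 1.14 ± 0.32 above the GFP line, with an adjusted p of 0.12 (95% interval 0.40 to 1.87). That difference passed with the replicate number as a block, in a fit that called 2186 of 17081 Pol II regions against 242 without it. The labels state no pairing of the Pol II libraries. The responses differed by 0.77 ± 0.45 (95% interval -0.27 to 1.82, adjusted p 1). The merged region, chr5:114913475-114953259, also lies over other genes, among them 2210016L21Rik and Gm13822. With only the peaks that touch Oasl1, a setting added after seeing the data, the rise was 2.76 and 3.50 (adjusted p 0.002 and 0.00055, limma). Whole peaks were kept and not cut at the gene, so that setting does not give the signal of Oasl1 alone. In Nur77 LPS replicate 2, 1 peak of 39.3 kb kept 3368 tags across the neighbours. In untreated Nur77 replicate 2, separate peaks over neighbours were dropped and 410 tags were left. Covered length went from 8.62 to 29.0 kb in the GFP line and from 9.24 to 35.5 kb in the Nur77 line, and tags per kb from 59.7 to 70.1 and from 81.6 to 123.9. Tested per bp the rises were 0.37 and 0.70 with adjusted p of 0.53 and 0.15, so neither passed.

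H3K27ac around the Oasl1 start (chr5:114919602-114927752, shared with Gm13822) held 226.7 and 218.6 tags in untreated GFP libraries and 383.8 and 377.7 after LPS. It held 289.5 and 287.6 in untreated Nur77 libraries and 684.3 and 662 after LPS. All 4 groups were apart, with the Nur77 line above the GFP line in both conditions. The rise was 1.10 ± 0.07 in the GFP line and 1.57 ± 0.07 in the Nur77 line (adjusted p 2.7e-07 and 2.2e-08, limma). The difference of 0.47 ± 0.11 between these rises had an unadjusted p of 0.00087 and an adjusted p of 0.08. The peaks widened from 2.76 to 4.90 kb and from 2.97 to 6.79 kb, and the group means of tags per kb lay between 77.7 and 101.8. Per bp, the LPS changes were 0.08 and 0.20 and did not pass (adjusted p 0.69 and 0.25).

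HA-Nur77 at Oasl1 held 29.6, 54.0 and 11.1 tags in untreated replicates 1 to 3 and 115.3, 120.5 and 80.6 after LPS. The lowest LPS library exceeded the highest untreated library. The log2 change was 1.87 ± 0.34, with an adjusted p of 0.019 (limma). The peaks did not all sit at the same place. In the 3 LPS libraries and in untreated replicate 1 the peak centre lay between -272 and -204 relative to the start, and in untreated replicates 2 and 3 at -1170 and -1166. The nearer position thus had a peak in 3 of 3 LPS libraries and 1 of 3 untreated libraries. When peaks had to share at least 100 bp, the 2 positions came apart and neither was tested. The call was also lost on leaving out untreated replicate 1, untreated replicate 3, LPS replicate 1 or LPS replicate 3, with log2 changes of 1.73, 1.64, 1.99 and 1.71 and adjusted p of 0.11, 0.077, 0.092 and 0.059, without scaling (1.94, adjusted p 0.61) and without both narrow-peaked libraries numbered 3 (1.45, adjusted p 0.21). With the replicate number as a block it passed with and without those libraries (limma, adjusted p 3.95e-11 and 6.17e-08). Those fits called 4555 of 11234 and 3952 of 12310 HA regions, and the labels state no pairing of the HA libraries. Spread is shared between regions in these fits, and some untreated peaks lie at the other position. These p-values thus do not measure the spread of a change at the same place.

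Oasl2 had no HA and no Pol II region. Its one H3K27ac region lay 3955 bases before the start (chr5:114892084-114892979). It held 21.2 and 27.6 tags in untreated GFP libraries and 9.27 and 11 after LPS. The Nur77 line had 14.3 and 19.0 untreated, 7.61 in LPS replicate 1 and no peak in LPS replicate 2. The LPS libraries were thus the lower ones in both lines, while Oasl1, its neighbour, moved up.

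**Figure D3:**
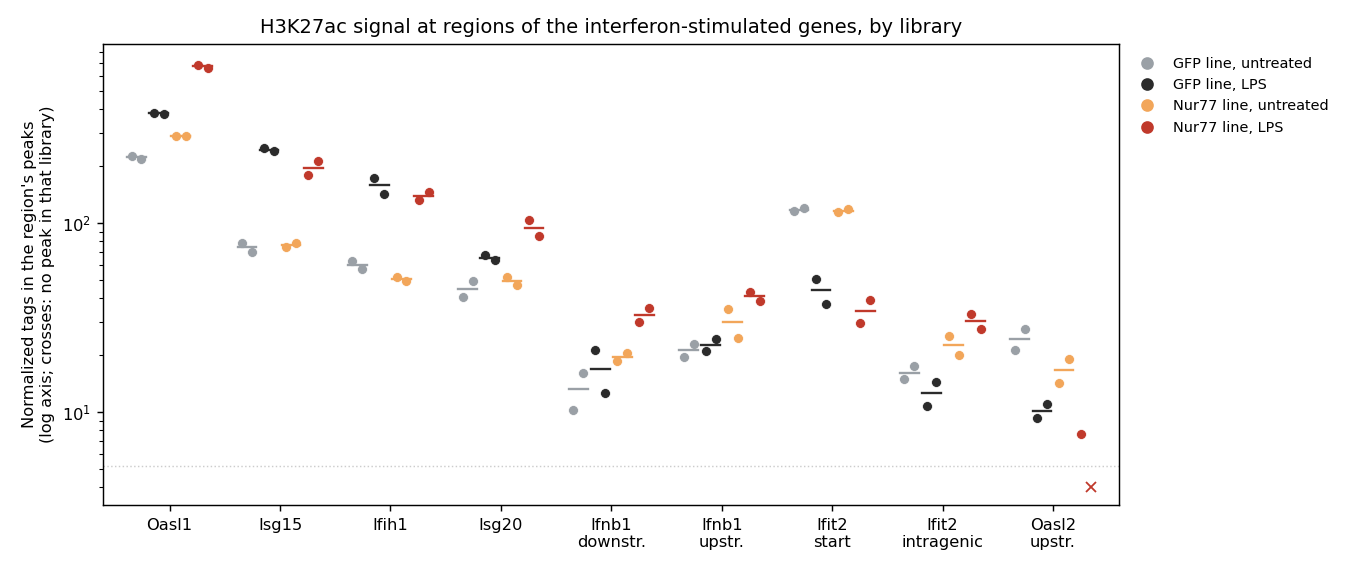
Normalized H3K27ac tags of 9 member regions in each of the 8 libraries, on a log axis, with group means as short lines and a cross for the library without a peak. Oasl1, Isg15, Ifih1 and Isg20 are higher after LPS, the Ifit2 start and the region upstream of Oasl2 lower.

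Isg15 (chr4:156199424-156200818, minus strand) encodes a ubiquitin-like protein that is attached to other proteins during infection. Pol II over it held 266 and 133.8 tags in untreated GFP libraries and 3362 and 1533 after LPS, and 197.9 and 150.2 untreated and 2270 and 1418 after LPS in the Nur77 line. The 4 LPS libraries were all above the 4 untreated ones, with no separation of the lines. The log2 changes were 3.73 ± 0.47 and 3.75 ± 0.47 (adjusted p 0.002 and 0.0013, limma). Isg15 was called per bp in both lines too, at 1.90 and 2.14 (adjusted p 0.0013 and 0.00036). The merged region, chr4:156192633-156211180, also covers AW011738, Agrn, Gm46878 and Perm1. With only the peaks touching Isg15 the rises were 4.01 and 3.97. Whole peaks were kept there too, among them 1 of 18.5 kb in GFP LPS replicate 1, so these rises are not of Isg15 alone.

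H3K27ac over Isg15 (chr4:156196904-156202036) held 78.7 and 69.8 tags in untreated GFP libraries and 248.5 and 240.7 after LPS, and 74.2, 78.6, 178.9 and 212.7 in the same order in the Nur77 line. Here the GFP line was the higher after LPS. The region is shared with Agrn and Gm46878. In untreated GFP libraries a separate peak on the 3′ side of Isg15 held 58.2 and 55.8 tags, and one across the start 20.5 and 14.0. In GFP LPS replicate 2 these peaks held 99.7 and 141 tags, and in the other LPS libraries 1 peak spanned both places. Over the whole region the rises were 2.04 ± 0.11 and 1.69 ± 0.11 (adjusted p 4.7e-08 and 1.9e-07, limma). The Nur77 minus GFP difference after LPS was -0.26 ± 0.11, with an adjusted p of 0.082, and it passed without scaling (-0.32, adjusted p 0.047). HA had a peak on the 3′ side of Isg15, near Agrn, in untreated replicate 1 (24.9 tags) and LPS replicate 2 (46.8 tags) only.

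Isg20 (chr7:78913396-78920396, plus strand) encodes an exonuclease that acts on RNA and single-stranded DNA. Pol II across its start, in a region shared with Aen (chr7:78909068-78914620), held 120.3 and 121 tags in untreated GFP libraries and 160.8 and 157.9 after LPS. In the Nur77 line it held 55.8 and 91.8 untreated and 110.5 and 222.4 after LPS. The spread in the Nur77 line was wide, and the untreated Nur77 libraries were the lowest. The log2 change was 0.55 ± 0.39 in the GFP line (adjusted p 0.38) and 1.50 ± 0.39 in the Nur77 line (adjusted p 0.023, limma). The difference between the responses, 0.95 ± 0.55, did not pass (adjusted p 1). The Nur77 call was lost without untreated replicate 1 (1.05, adjusted p 0.13), without LPS replicate 2 (1.01, adjusted p 0.11) and per bp (0.85, adjusted p 0.052).

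H3K27ac at the Isg20 start (chr7:78911728-78914575, shared with Aen) held 40.4 and 49.1 tags in untreated GFP libraries and 67.3 and 63.6 after LPS. It held 51.6 and 46.8 in untreated Nur77 libraries and 103.2 and 85.5 after LPS. The Nur77 LPS libraries were the highest. The rises were 0.87 ± 0.16 and 1.27 ± 0.16 (adjusted p 0.00082 and 4.3e-05, limma). HA had a peak centred at -872 and -878 relative to the first start in LPS replicates 1 and 2 (36.3 and 48.2 tags) and none there in the other 4 libraries. In untreated replicate 1 an HA peak of 21.0 tags lay across the second of its 3 annotated starts. A Pol II peak of 12.2 tags further along Isg20 was called in Nur77 LPS replicate 2 only.

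The Ifit genes encode proteins with tetratricopeptide repeats that bind foreign RNA or block its translation. Ifit2 (chr19:34550550-34576534), Ifit3 (chr19:34583119-34588982) and Ifit1 (chr19:34640889-34650009) stand in a row on the plus strand, with Ifit3b, Ifit1bl1 and Ifit1bl2 between or across them. These are close copies of Ifit3 and Ifit1. How reads that fit several copies were handled is not given in the sources used here, so values of Ifit1 and Ifit3 may include reads of the copies.

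Over Ifit1 the Pol II region chr19:34638924-34647327 had a peak in all 4 LPS libraries and in no untreated library. It held 373 and 81.1 tags in the GFP LPS libraries and 190.7 and 157.8 in the Nur77 LPS libraries. A further region past the end of Ifit1, from 9.16 to 12.4 kb after the start, had the same pattern, with 69.7 and 23.8 tags in the GFP line and 19.2 and 59.3 in the Nur77 line. These 2 of 28 member regions compare with 1.45% of all 46133 Pol II regions with a peak in every LPS library and in no untreated one. The smallest Pol II peaks listed in untreated libraries held 5.76 to 6.73 tags, which limits what an absent peak can mean. When libraries without a peak were set to 0, 10.8% of 29452 regions were called higher after LPS in the GFP line and 12.5% in the Nur77 line. Regions such as those of Ifit1 enter that fit only through the LPS libraries, and untreated groups of zeros have no spread, so no call or fold from it is given for them.

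At Ifit1 H3K27ac had a peak in 1 of 8 libraries only, GFP LPS replicate 2 (17.0 tags). HA had a peak across the Ifit1 start in LPS replicates 1 and 3, with 19.6 and 14.5 tags and centres 95 and 68 bases before the start, and in no untreated library. These peaks, 877 and 427 bp wide, are much wider than the stretch with the capitalised response element cores and do not place HA within it. The smallest HA peaks listed held 8.11 to 17.1 tags in untreated libraries.

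**Figure D4:**
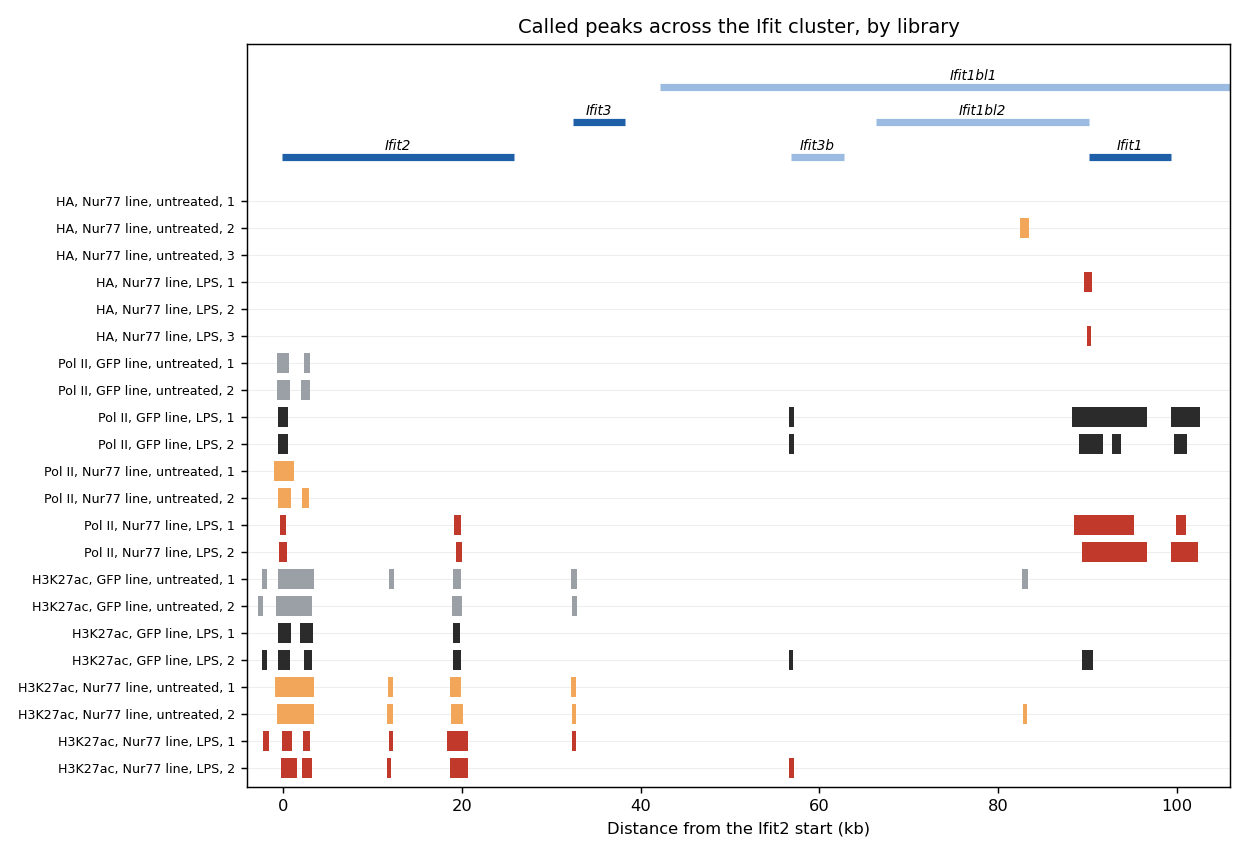
Called peaks across the Ifit cluster in each library of HA, Pol II and H3K27ac, by distance from the first Ifit2 start in kb. Bars span the called peaks, with gene spans drawn on top (members dark blue). After LPS the broad H3K27ac bar at Ifit2 splits and shortens, while Pol II bars appear over Ifit1 in all 4 LPS libraries.

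The start of Ifit2 went the other way. Pol II there (chr19:34549622-34551876) held 79.1 and 90.4 tags in untreated GFP libraries and 33.6 and 30.9 after LPS. The Nur77 line had 85.8 and 107.5 untreated and 19.6 and 19.4 after LPS. Every LPS library was below every untreated library, and both Nur77 LPS libraries were below both GFP LPS libraries. The log2 change was -1.22 ± 0.30 in the GFP line (adjusted p 0.026) and -1.87 ± 0.30 in the Nur77 line (adjusted p 0.0034, limma). The GFP call was lost on leaving out any of its 4 libraries (-1.31 to -1.12, adjusted p 0.088 to 0.11), and neither line passed per bp (-0.84 and -0.87, adjusted p 0.10 and 0.068). A second Pol II region, 1.63 to 2.58 kb after the second start, had a peak in both untreated GFP libraries and untreated Nur77 replicate 2 and in no LPS library.

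H3K27ac at the Ifit2 start (chr19:34549802-34554183) fell as well. It held 116 and 119.3 tags in untreated GFP libraries and 50.7 and 37.3 after LPS, and 113.7 and 118.1 untreated and 29.6 and 39.0 after LPS in the Nur77 line. The log2 changes were -1.09 ± 0.16 and -1.40 ± 0.16 (adjusted p 0.00017 and 2.2e-05, limma), and both passed per bp (-0.61 and -0.74, adjusted p 0.0017 and 0.00036). In untreated libraries 1 peak covered 4.00 to 4.29 kb, and after LPS 2 shorter peaks were called there.

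Further into Ifit2, 17989 to 20308 bases after the second start, H3K27ac (chr19:34569077-34571396) held 14.9 and 17.4 tags in untreated GFP libraries and 10.7 and 14.4 after LPS. The Nur77 line held 25.2 and 19.9 untreated and 33.1 and 27.4 after LPS. All 4 Nur77 libraries were above all 4 GFP libraries. After LPS the Nur77 line was 1.28 ± 0.28 higher (adjusted p 0.0038, limma), and that call was lost per bp (0.11, adjusted p 0.68). The LPS change was -0.04 ± 0.28 in the GFP line and 0.75 ± 0.28 in the Nur77 line (adjusted p 0.91 and 0.037). The latter was lost without untreated Nur77 replicate 1 or 2 or LPS Nur77 replicate 1 (0.90, 0.59 and 0.56), without scaling (0.41, adjusted p 0.22) and with absent peaks set to 0 (0.72, adjusted p 0.097), and turned to -0.14 per bp. A Pol II peak at this place was called in both Nur77 LPS libraries (13.9 and 9.33 tags) and in no other library.

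Ifit3 had no HA and no Pol II region. H3K27ac over its start had a small peak in both untreated GFP libraries (8 and 7.29 tags), both untreated Nur77 libraries (5.99 and 6.56) and Nur77 LPS replicate 1 (9.18). At Ifit3b, 500-base Pol II peaks of 8.75 and 6.49 tags were called in the 2 GFP LPS libraries.

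Rsad2 (chr12:26442743-26456452, minus strand) encodes viperin, an enzyme that makes a chain-terminating nucleotide. Pol II over its start and the stretch after it (chr12:26449390-26456819) held 163.1 and 92.8 tags in the GFP LPS libraries and 19.2 and 77.9 in the Nur77 LPS libraries. Among untreated libraries there was 1 peak, of 8.02 tags, in GFP replicate 2. Past the gene's middle, 1 Pol II region held 27.4 tags in GFP LPS replicate 1, and 1 at its end held 49.9 and 48.9 tags in the GFP LPS libraries and 31.6 in Nur77 LPS replicate 2. At the start, all 4 LPS libraries thus exceeded the only untreated peak, and the Nur77 LPS libraries spread widely. H3K27ac at the Rsad2 start was listed in the GFP LPS libraries only, at 7.10 and 5.97 tags, near the smallest peaks of those lists.

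The HA region of Rsad2 lay upstream of the gene, with centres between -3962 and -3866 relative to the start in all 6 libraries (chr12:26459810-26460850). It held 33.5, 22.6 and 14.4 tags untreated and 91.4, 32.0 and 54.0 after LPS. The untreated and LPS libraries overlapped, but each LPS library exceeded the untreated library of the same number. The log2 change was 1.17 ± 0.41 with an adjusted p of 0.14. HA libraries with the same number deviated together over regions, although the labels state no pairing. With the number as a block the adjusted p was 8.8e-06 (limma). That fit called 4555 of 11234 HA regions, against 519 without the block. Spread is shared between regions in these fits, so this p does not measure the spread at Rsad2 alone. The Rsad2 region was also called without LPS replicate 2 (1.72, adjusted p 0.004). With the block it was called when both libraries numbered 3 were left out (0.87, adjusted p 0.004). H3K27ac overlapped this HA region by 872 bp, in both GFP LPS libraries (21.1 and 8.62 tags) and in Nur77 LPS replicate 1 (6.27 tags).

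**Figure D5:**
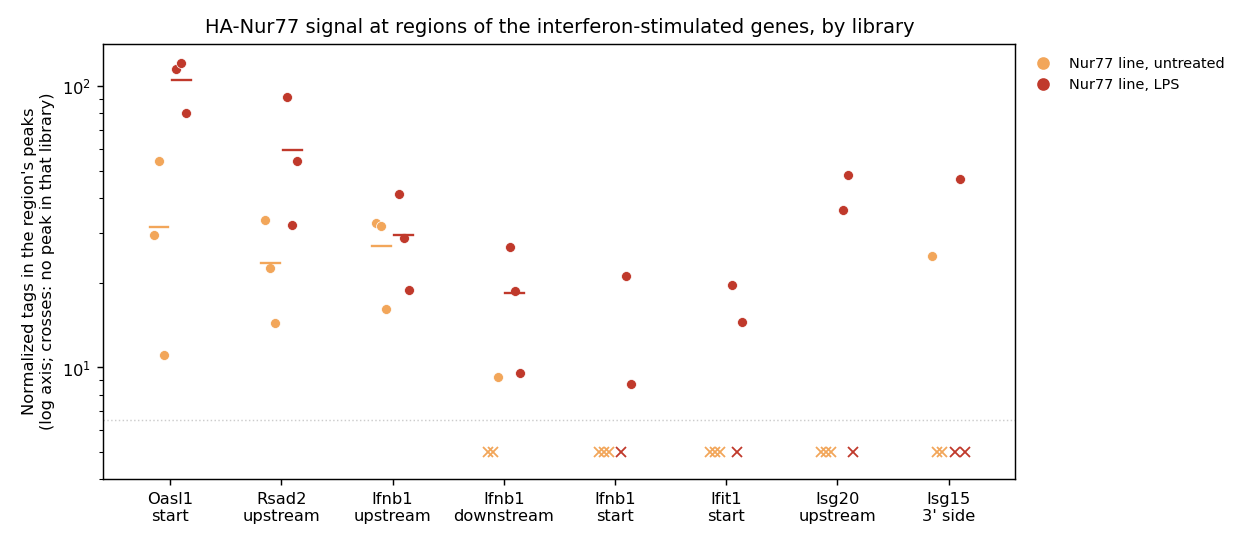
Normalized HA tags of 8 member regions in the 6 HA libraries of the Nur77 line, on a log axis, with group means where all 3 libraries had a peak and crosses where a library had none. LPS libraries stand above untreated ones at Oasl1, and at Ifnb1 upstream the groups overlap.

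Ifnb1 (chr4:88522025-88522794, minus strand) had no Pol II region. Signal around it lay at 3 places where HA and H3K27ac overlapped, one at the start and one on each side. Upstream (HA chr4:88537083-88538110, 14289 bases before the start) HA held 32.7, 31.9 and 16.2 tags untreated and 41.3, 28.8 and 18.9 after LPS. The groups overlapped, and the log2 change was 0.05 ± 0.24 (95% interval -0.47 to 0.58, adjusted p 0.93, limma). Downstream (HA chr4:88515432-88516364, 6430 bases after the start) HA had a peak in all 3 LPS libraries (26.8, 18.7 and 9.59 tags) and in untreated replicate 3 (9.22 tags). At the start, HA had a peak in LPS replicates 2 and 3 (21.2 and 8.77 tags).

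H3K27ac downstream of Ifnb1 (chr4:88514801-88516249) held 10.2 and 16.1 tags in untreated GFP libraries, 21.3 and 12.6 after LPS, 18.7 and 20.4 in untreated Nur77 libraries and 29.8 and 35.5 after LPS. The 2 Nur77 LPS libraries were the highest of the 8. Upstream (chr4:88536897-88538372) the values were 19.5 and 22.8, 20.9 and 24.3, 35.1 and 24.6, and 43.0 and 38.8 in the same order, with the Nur77 LPS libraries again the highest. Near the start itself, from -786 to -130, H3K27ac had a peak in both Nur77 LPS libraries (10.5 and 9.75 tags) and in no other library. The smallest peaks listed held 4.94 to 5.21 tags in untreated and 5.08 to 5.60 in LPS H3K27ac libraries.

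The LPS change downstream of Ifnb1 was 0.64 ± 0.31 in the GFP line and 1.05 ± 0.31 in the Nur77 line (adjusted p 0.10 and 0.013, limma), and upstream 0.41 ± 0.24 and 0.80 ± 0.24 (adjusted p 0.17 and 0.013). Neither Nur77 call held per bp (0.30 and 0.22, adjusted p 0.21 and 0.37) or without scaling (0.71 and 0.46, adjusted p 0.071 and 0.12). Leaving out untreated Nur77 replicate 1 or LPS Nur77 replicate 2 ended the downstream call, and untreated Nur77 replicate 2 or LPS Nur77 replicate 1 the upstream call (adjusted p 0.067 and 0.068 downstream, 0.086 and 0.14 upstream). Leaving out GFP LPS replicate 2 moved the downstream GFP change to 0.99 (adjusted p 0.032).

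The other 8 H3K27ac regions of Ifih1, Ifit2, Ifnb1, Oasl1 and Rsad2 were small, at 5.64 to 11 tags, and were called in 1 to 5 of the 8 libraries. Of these, the one 2048 bases before the Ifih1 start held 6.14 and 5.75 tags in untreated GFP libraries, 10.8 and 11 after LPS and 10.6 in Nur77 LPS replicate 2. One within Ifit2, 11.2 kb after the second start, was called in all 4 Nur77 libraries (5.64 to 9.30 tags) and in untreated GFP replicate 1.

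Between the lines, Pol II did not pass at any of the 5 tested member regions, untreated or after LPS, in the fit without a replicate block. With that block Oasl1 passed after LPS, as given above. The LPS response did not differ at any of the 5. One region each had an unadjusted p under 0.05 in the untreated and LPS comparisons, and none in the comparison of responses. Of all regions 0.170% differed between untreated lines, 1.42% after LPS and 0% in response. For H3K27ac, 1 of 8 member regions was higher in the untreated Nur77 line (Oasl1, 0.41 ± 0.07, adjusted p 0.0014, limma). Of all 27094 regions 4297 were higher and 4057 lower, or 30.8% either way. After LPS 5 of 8 member regions were higher in the Nur77 line and 0 lower. Of all regions 4555 were then higher and 5212 lower, or 36.0% either way. No member region differed in its H3K27ac response, with 2 at an unadjusted p under 0.05 (Oasl1 and Isg15), against 0.672% of all regions called.

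The 5 H3K27ac regions higher in the Nur77 line after LPS were Oasl1 (0.88 ± 0.07, adjusted p 5.5e-06), Isg20 (0.58 ± 0.16, adjusted p 0.016), the intragenic Ifit2 region (1.28, given above) and the regions downstream (1.01 ± 0.31, adjusted p 0.024) and upstream of Ifnb1 (0.89 ± 0.24, adjusted p 0.012, limma). HA regions overlapped those of Oasl1 and Isg20 and both of Ifnb1, and none overlapped the intragenic Ifit2 region. HA regions also lay within the H3K27ac regions of Isg15 and Ifih1, where the difference between lines after LPS was -0.26 and -0.11 and did not pass. Without LPS Nur77 replicate 1, 2 of the 5 calls were left, since Isg20 (0.39, adjusted p 0.13) and both Ifnb1 regions (1.08 and 0.77, adjusted p 0.062 and 0.073) were lost. Isg20 was also lost without GFP LPS replicate 2 (0.52, adjusted p 0.083), the downstream Ifnb1 region without GFP LPS replicate 2 or Nur77 LPS replicate 2 (0.63 and 0.94, adjusted p 0.19 and 0.10), and the upstream one without GFP LPS replicate 1 (0.79, adjusted p 0.070). Per bp the calls for Oasl1, Isg20 and upstream Ifnb1 held (0.46, 0.53 and 0.59).

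The rest of the pathway was read from a list of sensors, receptor and signalling genes, interferon regulatory factors, other interferon-stimulated genes and inhibitors, with 1 region per gene, the strongest tested one. For Pol II 54 such regions were tested. After LPS 14 rose and 2 fell in the GFP line, against 9.78% and 8.79% of all regions, and 15 rose and 4 fell in the Nur77 line, against 14.4% and 15.7%. The median log2 change was 0.33 and 0.34, against 2.09 and 2.87 over the 5 member regions. The latter stand for 5 of the 10 members. Both sets were chosen with earlier results of these data known, so the medians do not rank them. By role, 3 of 12 sensors, adaptors and kinases rose and 1 fell in each line. Tbk1, the kinase that activates IRF3, rose by 2.46 ± 0.19 and 2.58 ± 0.19, and Ikbke, a related kinase, by 2.66 and 2.84 ± 0.22, while Mavs, the adaptor downstream of MDA5, fell (-1.15 and -1.32). Regions are shared with Xpot at Tbk1, with Rassf5 and Srgap2 at Ikbke, with Cdc37 at Tyk2 and with Gm12216 at Irf1. The Pol II regions of Ikbke and Parp14 and the H3K27ac region of Parp14 also overlapped a region called in input.

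Of the receptor and signalling genes, 4 of 7 rose in the GFP line and 3 in the Nur77 line. Among the regulatory factors 1 of 6 rose in each line, Irf1, by 3.44 ± 0.20 and 2.12. Among the other interferon-stimulated genes 5 of 25 regions rose and 1 fell in the GFP line, and 7 rose and 2 fell in the Nur77 line. Parp14, which had the smallest p of that group, rose by 2.83 ± 0.23 and 3.20 ± 0.23 (adjusted p 0.00036 and 0.00016, limma). Of the 4 inhibitors 1 rose in each line. No Pol II region of the list differed between lines or in response, with 7, 12 and 1 at an unadjusted p under 0.05. The smallest p between untreated lines belonged to Ifitm3, Ikbke and Tyk2 (-1.43, 0.87 and 0.63), after LPS to Irf1, Ikbke and Irf8 (-0.999, 1.05 and 0.65) and in response to Irf1, Socs1 and Samhd1 (-1.32, -0.82 and -0.68).

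For H3K27ac 57 regions of the list were tested, of which 25 rose and 12 fell in the GFP line, against 27.3% and 25.8% of all regions, and 25 rose and 13 fell in the Nur77 line, against 28.1% and 27.5%. Parp14, Tyk2 and Ikbke had the smallest p in both, at 2.47, 1.71 and 2.04 in the GFP line and 2.49, 1.03 and 1.40 in the Nur77 line. Between untreated lines 10 were higher and 7 lower in the Nur77 line, against 30.8% of all either way, led by Tyk2 (1.16), Ikbke (1.28) and Ifitm3 (-0.76). After LPS 8 were higher and 18 lower, against 36.0% of all either way, led by Ifi204 (-1.73), Ifitm3 (-0.77) and Socs3 (0.67). In response 5 of 57 were smaller in the Nur77 line and 0 larger, led by Irf1, Tyk2 and Tor3a (-1.08, -0.67 and -0.59), where 147 of all 27094 regions were smaller. All 5 calls were lost per bp and without untreated Nur77 replicate 2, since neither setting called any region smaller. For HA 26 regions were tested, of which 2 rose and 1 fell, against 3.27% and 1.35% of all regions. Irf8 (1.29 ± 0.28) and Socs3 (1.54 ± 0.33) rose while Mavs fell (-1.15 ± 0.23, adjusted p 0.025, limma).

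The Pol II regions most like that of Oasl1 over the 8 libraries, by the root mean square difference of log2 values centred on each region's mean, lay over 1600002D24Rik (0.22), Gm41067 (0.24), Art3 and Gm2673 (0.26), Chd7 (0.27) and Pla1a (0.27). Among members Isg15 was at 0.88, Isg20 at 1.07, Ifih1 at 1.09 and Ifit2 at 2.13.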

How the data were processed

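Peak lists of 26 ChIP-seq and input libraries of mouse RAW264.7 lines were analysed. HISAT2 2.1.0, HOMER and the mm10 genome build are named in the submitters' processing notes. How reads matching several places were treated is not given in the sources used here. The deposited signal is HOMER's normalized tag count per peak, scaled to 10000000 mapped tags, per the file headers. These are not raw counts, so no count model was used. Peaks were called per library. Per the file headers, replicate 1 of 3 H3K27ac groups (all but Nur77 LPS) was called without the option that turns local filtering off.

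From these lists, peaks of a target sharing at least 1 bp were merged and their normalized tags summed per library. Scaling factors were trimmed means of M-values (30% of M and 5% of A trimmed). Regions with a peak in every library of the target were fitted with limma 3.58.1 (R 4.3.3) with a trend on log2(value + 1), all libraries of a target together, with Benjamini-Hochberg adjustment and a threshold of 0.05. Intervals are 95% intervals of the fit. Groups came from the labels. The script was tested on simulated data. Promoters came from RefSeq (GRCm38.p6).

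All 10 members are named with all their regions, and of the pathway list the 3 genes with the smallest p per comparison, counted on each gene's strongest fitted region. Other pathway genes given (Ikbke in the GFP line and Mavs for Pol II) were added after their values were seen. Members and lists were chosen with earlier results of these data known. HA libraries with the same replicate number deviated together over regions (r = 0.48, 0.83 and 0.69), so the numbers were taken to pair the HA libraries. This pairing comes from the data, since the labels name no shared batch. Alternatives changed the scaling, pseudocount, merging, peak filter, window, handling of absent peaks, length, input regions and replicate block, and left out each library. Some items are not reported here. Input libraries served only to look for peaks over the members and the pathway regions.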

Additional observations from a re-analysis of the deposited data

Results flagged for a closer look

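The log2 change of H3K27ac with LPS was lower in the Nur77 line than in the GFP line at 5 genes of the pathway list, by the limma interaction test adjusted over all H3K27ac regions. The difference was -1.08 on the log2 scale at Irf1, a transcription factor of the interferon response, and -1.05 at Socs1, an inhibitor of JAK signalling. It was -0.67 at Tyk2, a kinase of the interferon receptor, -0.64 at Ikbke and -0.59 at Tor3a. Over all H3K27ac regions 0.672% were called in this test, 147 of 27094 as lower. No region was called lower without untreated Nur77 replicate 2, and none was called per bp, so all 5 calls were lost in both settings. Leaving out each of the other libraries left 15 to 164 lower calls over all regions. None of the 10 member genes passed this test. It compares responses and not levels after LPS. In the untreated Nur77 line, Tyk2 and Ikbke were already higher than in the GFP line, by 1.16 and 1.28. No cause was tested.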

How the results depend on the processing

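Of 575 recomputed log2 changes of single member regions, 516 kept their direction and side of the threshold, 45 lost the call, 7 gained it and 7 changed sign. Of 178 recomputed counts of called member regions, 152 stayed within 1.5 times the reported count. The cause was not tested for those that moved, except that leaving out a library also removes a sample. For HA the count was 1, and it became 0 without scaling, with at least 100 bp shared, with the weakest peaks left out and without both libraries numbered 3 (a setting added after seeing the data). With at least 100 bp shared or the weakest peaks left out, the Oasl1 region was not tested. It became 2 with the replicate block, where 4555 of all 11234 HA regions were called against 519 without it. It was also 2 with the block and without both libraries numbered 3 (3952 of 12310 regions), and 0 to 2 on leaving out one library. For Pol II after LPS, the 4 calls in the GFP line became 9 with absent peaks set to 0 and 1 per bp, and the 5 in the Nur77 line 9 and 2. With absent peaks set to 0, 2 Pol II regions differed between lines after LPS and 2 in response, where 0 did before. Setting absent peaks to 0 gives such groups no spread at all. Pol II libraries with the same number deviated together (r = 0.35 to 0.63), but the labels state no pairing. With the replicate block 1 Pol II region differed between lines after LPS, Oasl1 (adjusted p 0.015), where 0 did before. H3K27ac numbers showed no such pattern (r = -0.10 to 0.09). With crossed numbers 8037 H3K27ac regions differed between untreated lines, against 8354 without a block and 8351 with it. For H3K27ac after LPS in the Nur77 line, the 8 calls became 5 without scaling and 4 per bp. Between untreated lines 1 call became 0 per bp. Between lines after LPS 5 calls became 8 with absent peaks set to 0, 3 per bp, 3 with no window around genes and 2 to 4 on leaving out one library. In response, 0 became 3 with absent peaks set to 0. Changes of sign were near 0: HA upstream of Ifnb1 lay between -0.0205 and 0.218 over the libraries left out, and intragenic H3K27ac of Ifit2 in the GFP line between -0.25 and 0.14, and 0.0097 per bp. In the Nur77 line the latter was -0.14 per bp. Where 1 library of a group was left out of 2, the lone library was assumed to vary like the other groups. Depth limits the regions with no peak, since lists start at 4.94 to 17.1 tags.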
